A study of Mus musculus with 19 samples.

Results

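Class I molecules of the major histocompatibility complex (MHC) carry short peptides from inside a cell to its surface, where T cells read them. Proteasomes cut proteins into peptides, a transporter moves these into the endoplasmic reticulum, an aminopeptidase trims them there, and editors hold empty class I molecules until a peptide fits. In hepatocytes, which make up most of the liver's mass, this machinery is known to be present at rest and to be raised by interferons, the cytokines of antiviral defence. The 7 genes described here are Tap1, Tap2, Tapbp, Tapbpl, Erap1, Nlrc5 and Irf1, picked by symbol from 24537 genes in the deposited table, and all 7 were found there.

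RNA was measured in hepatocytes of male C57BL/6J mice labelled wild type, 10 of them 5 months old (young) and 9 of them 24 months old (old). The mice carried no labelled transgene or treatment, and their livers were perfused to isolate the cells. Mice were culled on 2 days: 5 young and 5 old mice on the first, and 5 young and 4 old mice on the second. Each mouse gave 1 library and is called here by its library number.

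Libraries held 17381439 to 20287628.5 counts in genes, with a mean of 19549006 in old and 18575212 in young mice. Totals in the deposited column names ran from 23177456 to 23781337 in old and from 21038999 to 22893387 in young mice, without overlap. The 6 hepatocyte markers, albumin among them, summed to between 86686 and 193520 CPM in every library. CPM are counts scaled to a common library total. Markers of other liver cells were present too, and are given with the results they accompany. Old mouse 1187 had the highest macrophage sum, with 14 markers at 4000 CPM against 96.8 to 949 in the other old mice. Young mice 1184, 1186 and 1188 stood apart in 8 acute phase genes, which summed to 17931 to 37864 CPM in them and to 2575 to 3175 CPM in the other young mice. Their hepatocyte markers were also the lowest, at 86686 to 88698 CPM against 130010 to 147630 CPM in the other young mice. In bulk RNA, fewer cells of a type and less RNA per cell cannot be told apart.

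The genes lie on 5 chromosomes of the mm10 build, in the coordinates of the deposited table. Tap1 (NM_013683, chr17:34187556-34197225, plus strand), Tap2 (NM_011530, chr17:34204479-34216321, plus strand) and Tapbp (NM_009318, chr17:33919478-33929290, plus strand) sit in the MHC region. Tapbpl (NM_145391) is at chr6:125224212-125231860 on the minus strand, and Erap1 (NM_030711) at chr13:74639872-74691875 on the plus strand. Nlrc5 (NM_001033207) is at chr8:94472763-94527272 and Irf1 (NM_008390) at chr11:53770014-53777324, both on the plus strand. Transcript models overlapped Tapbpl and Nlrc5, but E130112N10Rik had at most 5.5 counts in any library and Mir7072 at most 0.5, against at least 270 for Tapbpl and 103 for Nlrc5.

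RefSeq promoter windows on GRCm38.p6, the same build as mm10, run from 250 bases before to 50 bases after a start site and were at hand for 4 of the 7 genes: Tap1, Tapbp, Erap1 and Irf1. They were searched on both strands for 4 motifs. These were the interferon-stimulated response element, written as GAAA repeated after a gap of 2 bases of any kind, the gamma-activated site TTCNNNGAA, the NF-kB motif and the CCAAT box. Of 32851 promoter windows, 3.44% held the first, 8.3% the second, 8.46% the third and 37.4% the last. The Irf1 and Erap1 stretches below are shown for their matches to elements through which interferon signalling acts, and the Tap1 stretch because it is shared with an immunoproteasome gene. Capitals mark each match, written 5′ to 3′ on the plus strand.

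Tap1: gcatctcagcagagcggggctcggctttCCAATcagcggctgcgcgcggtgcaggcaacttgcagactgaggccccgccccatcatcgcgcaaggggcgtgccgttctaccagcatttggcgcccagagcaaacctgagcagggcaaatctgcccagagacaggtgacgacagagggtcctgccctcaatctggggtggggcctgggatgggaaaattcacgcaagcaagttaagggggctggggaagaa
Irf1: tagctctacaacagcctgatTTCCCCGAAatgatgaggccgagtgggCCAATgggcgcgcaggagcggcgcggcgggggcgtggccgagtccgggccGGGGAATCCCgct
Erap1: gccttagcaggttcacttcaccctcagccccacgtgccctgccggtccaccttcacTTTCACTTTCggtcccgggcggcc

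The Tap1 stretch is chr17:34187306-34187555, the whole 250 bases before its start, and its 1 match was a CCAAT box. It is also the promoter of Psmb9, an immunoproteasome gene read in the opposite direction from a start 226 bases away, so that the windows of both genes share 275 of 300 bases. The first 25 bases printed lie inside the Psmb9 transcript. The Irf1 stretch is chr11:53769904-53770013, which ends 1 base before the start. It held a gamma-activated site at -90 to -82, a CCAAT box at -63 to -59 and an NF-kB match at -13 to -4. The Erap1 stretch is chr13:74639793-74639872, around a RefSeq start at 74639853. It held the interferon-stimulated response element in reverse orientation, from -4 to 6. In the Tapbp window there were 2 CCAAT boxes and no match to the other 3 motifs. A match describes letters in a window and not a bound site.

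Across ages, 5 of the 7 genes rose in old mice and none fell, by edgeR's quasi-likelihood test with cull day as a covariate and an adjusted p below 0.05. Over all 12269 genes tested, 30.9% passed, 16.3% higher and 14.5% lower. The transporter genes Tap1 and Tap2, the editor genes Tapbp and Tapbpl and the regulator Nlrc5 were the 5. Irf1 and Erap1 did not pass. At an unadjusted p below 0.05 there were 6 of the 7, against 5193 of all 12269 genes. The median log2 fold change of the 7 was 0.59, against -0.0034 over all genes tested. With library totals in place of the scaling, which called 2098 genes higher and 1172 lower against 2005 and 1780 here, the same 5 of the 7 passed. In none of the 7 was every old mouse above every young mouse, a pattern found in 0.978% of all genes.

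Tap1 encodes a subunit of the peptide transporter of the endoplasmic reticulum. In young mice it ranged from 17.1 to 24.9 CPM with a median of 19.9. In old mice the range was 17.6 to 80.8 CPM with a median of 25.6. The old range came mostly from 2 mice of the first cull day, 1187 at 80.8 and 1181 at 59.1 CPM, while the other 7 old mice lay at or below 36.5 CPM. The groups overlapped, with 5 of 9 old mice above every young mouse. Tap1 was 1.68-fold higher in old mice (log2 fold change 0.75 ± 0.237, SE; edgeR adjusted p = 0.0236). Without mice 1181 and 1187 the log2 fold change was 0.29 and the call was lost (edgeR adjusted p = 0.0881). It was also lost without young mice 1184, 1186 and 1188, at 0.66 (edgeR adjusted p = 0.106).

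Tap2 encodes the partner subunit, and the transporter works as a pair of both. Its young values ran from 21.0 to 29.5 CPM, with a median of 24.8. Its old values ran from 26.8 to 61.1 CPM, with a median of 36.0. The shift was spread over more mice than that of Tap1, and 7 of 9 old mice lay above every young mouse. The log2 fold change was 0.62 ± 0.129 (SE; edgeR adjusted p = 0.00220), or 1.54-fold. Without mice 1181 and 1187 it was 0.46 and still passed (edgeR adjusted p = 0.00521).

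Because both subunits form 1 complex, their ratio was taken in each mouse, per kilobase of transcript. The mean log2 ratio of Tap1 to Tap2 was -0.55 ± 0.153 over the 10 young mice and -0.53 ± 0.421 over the 9 old mice (both SD). Tap1 was thus below Tap2 per kilobase on average at both ages. The age difference within cull days was -0.0019, and an exact two-sided permutation test gave p = 0.989 (adjusted over 5 ratios, 0.989). The old ratios spread from -0.95 to 0.18, wider at both ends than the young range of -0.78 to -0.30. On the first day alone the difference was 0.23 (exact permutation, adjusted p = 0.365) and on the second day -0.24 (exact permutation, adjusted p = 0.0496).

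Tapbp encodes tapasin, which bridges the transporter to class I molecules and edits their peptides. It was the most abundant of the 7 genes per kilobase. Young mice had 63.1 to 95.3 CPM with a median of 74.0, and old mice 84.9 to 194.8 CPM with a median of 110.8. Every old mouse exceeded 8 of the 10 young mice, and 6 of 9 exceeded all of them. Tapbp rose, with a log2 difference of 0.59 ± 0.112 (SE; edgeR adjusted p = 0.00119).

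Tapbpl encodes TAPBPR, a tapasin relative that edits peptides outside the transporter complex. Young values were 15.1 to 24.3 CPM (median 19.9) and old values 18.4 to 31.6 CPM (median 25.8). Of the old mice, 6 of 9 lay above every young mouse, while 1183, 1236 and 1242 lay within the young range. The log2 fold change, 0.35 ± 0.0979 (SE; edgeR adjusted p = 0.0121), was the smallest of the 5 that passed.

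The ratio of Tapbp to Tapbpl compares both editors within a mouse. Its mean log2 value was 1.53 ± 0.143 over the 10 young mice and 1.75 ± 0.210 over the 9 old mice (both SD), and 5 of 9 old mice lay above every young mouse. The age difference was 0.21 (exact two-sided permutation p = 0.0128, adjusted over 5 ratios 0.0160). It did not pass on the second day alone, at 0.10 (exact permutation, adjusted p = 0.357), nor without young mice 1184, 1186 and 1188, at 0.20 (exact permutation, adjusted p = 0.0893).

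Nlrc5 encodes the transactivator of class I genes, which reaches their promoters through the RFX, CREB and NF-Y factors. It was the least abundant of the 7 genes per kilobase. Young mice had 5.67 to 10.3 CPM with a median of 7.74, and old mice 7.97 to 19.8 CPM with a median of 11.3. In 6 of 9 old mice the value was above every young mouse, with 1187, 1181 and 1240 the highest. The log2 fold change was 0.64 ± 0.144 (SE; edgeR adjusted p = 0.00345), or 1.56-fold.

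Irf1 encodes an interferon-induced transcription factor that acts on class I pathway genes, Tap1 and Psmb9 among them. Young mice ranged from 15.4 to 43.6 CPM with a median of 23.3, and old mice from 26.5 to 72.4 CPM with a median of 34.0. Mouse 1187 stood far above the other old mice, whose highest value was 44.1 CPM, and only 2 of 9 old mice were above every young mouse. The age difference missed the threshold, at 0.49 on the log2 scale (SE 0.195; edgeR adjusted p = 0.0633, unadjusted p = 0.0212). DESeq2 placed it inside, at 0.48 (adjusted p = 0.0465), and so called 6 of the 7 genes, where it called 33.5% of all genes.

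Of the 7 genes, Irf1 moved most on leaving out the young mice with high acute phase genes. In mice 1184, 1186 and 1188 it lay between 31.4 and 43.6 CPM, against 15.4 to 36.4 CPM in the other young mice. Without these 3 mice the log2 fold change was 0.72 (edgeR adjusted p = 0.0264). Without old mouse 1187 it was 0.33 (edgeR adjusted p = 0.162). Without all 4 it was 0.59 (edgeR adjusted p = 0.00996). The part of the acute phase signal in the Irf1 values was not tested.

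Erap1 encodes the aminopeptidase that trims peptides in the endoplasmic reticulum. It had a similar range at both ages, 56.9 to 101.3 CPM in young mice and 53.4 to 101.8 CPM in old mice, with medians of 70.4 and 70.6. The log2 fold change was -0.02 with a 95% interval of -0.22 to 0.18 (edgeR adjusted p = 0.873). That interval lies below the log2 fold changes of the 5 genes that rose, but it overlaps the Tapbpl interval of 0.15 to 0.56. Differences between genes were not tested.

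Cull day, by contrast, separated young mice fully in Erap1. On the first day the 5 young mice had 77.0 to 101.3 CPM and on the second day the 5 young mice had 56.9 to 63.8 CPM. Old mice averaged 80.2 ± 18.9 CPM on the first day (SD, n = 5) and 63.4 ± 6.68 CPM on the second (SD, n = 4). In the same model, Erap1 was lower on the second day by 0.43 on the log2 scale (SE 0.0960; edgeR adjusted p = 0.0136). It was the 1 gene of the 7 that passed for cull day, where 12.3% of all tested genes did, so 1 of 7 was near that share. Tapbp came next, at -0.31 (edgeR adjusted p = 0.0696).

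**Figure D1:**
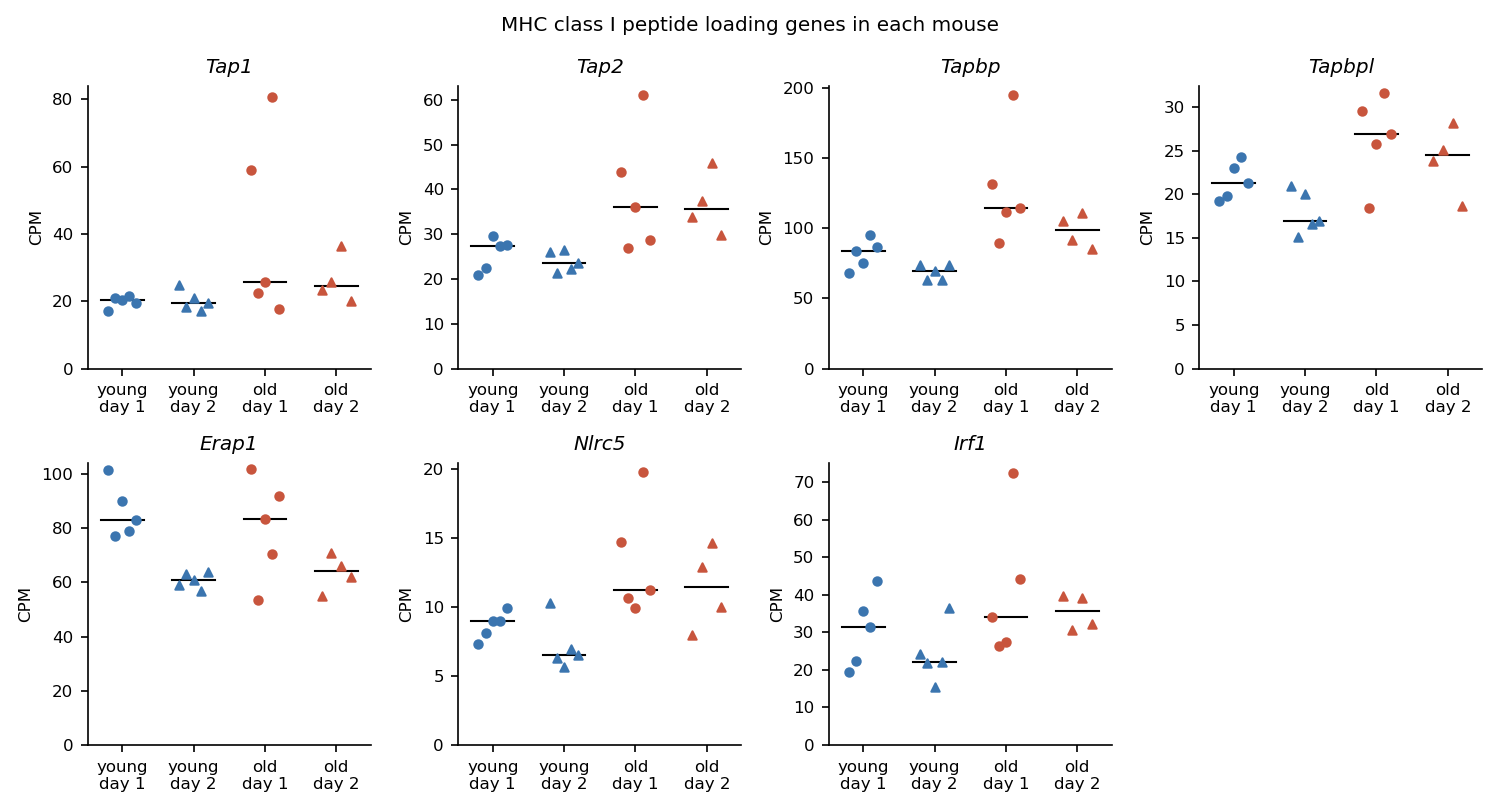
CPM (linear axes from 0) of the 7 genes in each mouse; circles are the first cull day, triangles the second, blue young, red old, and the bar is the median of each group and day. The highest point of every panel is an old mouse, though in Erap1 only by 101.8 against 101.3 CPM, and there the days differ and the ages overlap, and the highest Tap1 point is old mouse 1187 at 80.8 CPM.

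The same few mice led most of the genes. Mouse 1187 was the highest old mouse in 6 of the 7 genes, and 1181 in the other, Erap1. Mice 1181 and 1187 were each above every young mouse in 6 of the 7. At the other end, old mouse 1183 was the lowest old mouse in 4 genes and old mice 1183 and 1242 exceeded all young mice in 1 gene each. Without 1187, 5 of the 7 genes passed, where 24.5% of all genes did, and without both 1181 and 1187 it was 4 of the 7 against 20.4%, with Tap1 lost. Without young mice 1184, 1186 and 1188, 5 passed against 27.2%, and without those 3 and 1187, 5 passed against 28.3%. In both of these fits Irf1 was gained and Tap1 lost. The 5 genes that rose passed in each of the 19 fits that left out 1 mouse. Irf1 passed in 4 of those 19 fits, without 1183, 1185, 1188 or 1244, and over all 19 its edgeR adjusted p ran from 0.0323 to 0.162.

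Per kilobase, the order of the genes was the same at both ages: Tapbp, Erap1, Irf1, Tap2, Tapbpl, Tap1 and Nlrc5. In young mice, mean levels per kilobase ran from 27.5 ± 3.81 CPM for Tapbp (SD, n = 10) down to 1.15 ± 0.231 for Nlrc5. Differences between neighbours within mice were not tested. Among young neighbours, Irf1 (12.8 ± 4.24) was above Tap2 (9.999 ± 1.21 CPM per kilobase) in 9 of 10 mice. Tap2 was above Tapbpl (9.56 ± 1.40) in 7 of 10. In old mice Erap1 (18.2 ± 4.14 CPM per kilobase, SD, n = 9) was above Irf1 (18.1 ± 6.59) in 6 of 9. Irf1 exceeded Tap2 (15.4 ± 4.34) in 5 of 9 old mice. Tapbpl (12.3 ± 2.18) exceeded Tap1 (11.8 ± 7.30) in 7 of 9.

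Each cull day was also fitted alone. On the first day none of the 7 genes passed, where 3.67% of all genes did. Tap1 had its largest value there, a log2 fold change of 1.04 (edgeR adjusted p = 0.121), with 1181 and 1187 among the 5 old mice. Tap2 had 0.62 (adjusted p = 0.106), Tapbp 0.65 (0.0733), Tapbpl 0.30 (0.194), Nlrc5 0.61 (0.0812) and Irf1 0.42 (0.392) on that day, all by edgeR. On the second day 4 of the 7 passed, where 19.3% of all genes did. These were Tap2 at 0.62, Tapbp at 0.52, Tapbpl at 0.42 and Nlrc5 at 0.68, while Tap1 had 0.40 (edgeR adjusted p = 0.121) and Irf1 0.56 (edgeR adjusted p = 0.0650).

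Whether the age difference itself changed between days was tested with an interaction term. None of the 7 genes passed in edgeR, nor did any of the 12269 genes, of which 6.51% had an unadjusted p below 0.05. None of the 7 had an unadjusted p below 0.05. Tap1 had the largest interaction of the 7, -0.66 with an unadjusted p of 0.168 and an edgeR adjusted p of 0.868. DESeq2 gave no adjusted p for 5 of the 7 genes and called neither of the others, while over all genes it gave none for 9282 and called 20.

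**Figure D2:**
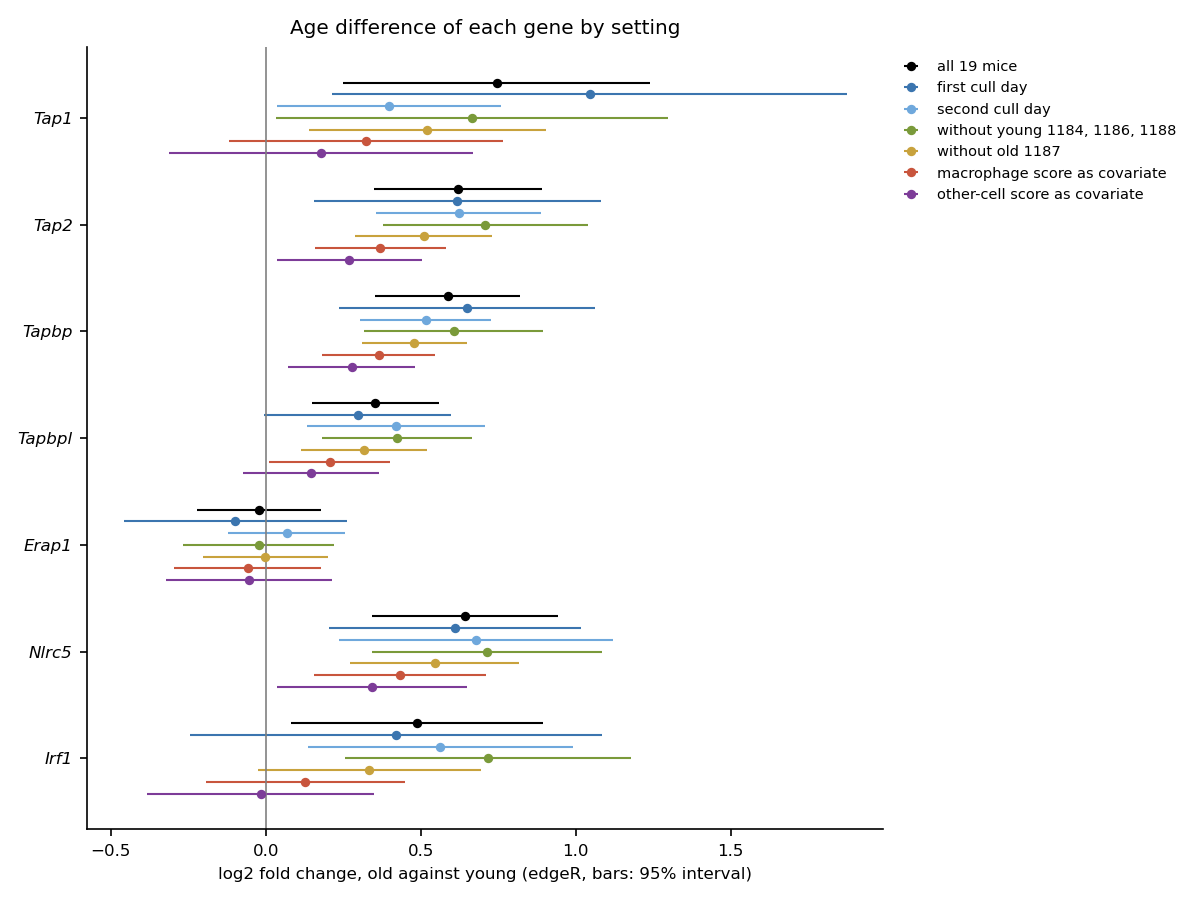
Log2 fold change of old against young mice for each of the 7 genes under the 7 settings named in the legend, with bars for the 95% interval. Tap1 moves most between the cull days, from 1.04 to 0.40, the values of the 6 genes other than Erap1 are lowest with the other-cell score, and every Erap1 interval spans 0.

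Markers of other cells moved with age beside these genes. Over all genes tested, 16.3% were higher in old mice. Of 14 macrophage markers, 13 were higher. Their sum ran from 159 to 731 CPM in young mice and from 96.8 to 4000 CPM in old mice. All 11 stellate cell markers were higher, with sums of 49.6 to 131 CPM in young and 141 to 492.6 CPM in old mice. These ranges did not overlap. Of all single genes, 0.978% had every old mouse above every young mouse. Of 11 endothelial markers, 8 were higher, from 168 to 329 CPM in young and from 181 to 607 CPM in old mice. T and NK cell markers summed to at most 3.32 CPM in every library except 1187, which had 32.5 CPM. The 1 tested gene of that list did not pass. B cell markers summed to at most 4.45 CPM outside 1187, which had 17.7 CPM, and the 1 tested gene of that list was higher. No marker was without reads in all libraries. Neutrophil markers summed to 0.110 to 5.13 CPM in young and 0.779 to 16.1 CPM in old mice, and the 1 tested gene of that list was higher. Dendritic cell markers summed to 1.55 to 3.42 CPM in young and 2.26 to 11.2 CPM in old mice, with 1 of 2 tested genes higher. Bile duct markers summed to 5.44 to 170 CPM in young and 7.93 to 63.5 CPM in old mice, and neither of the 2 tested genes passed. Of these 3 lists, Krt7 (bile duct) and Ly6g (neutrophil) had a median of 0 CPM at both ages.

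The age fit was repeated with marker scores as covariates. With the macrophage score, 3 of the 7 genes passed, where 18.1% of all genes did: Tap2 at 0.37 (edgeR adjusted p = 0.0173), Tapbp at 0.36 (0.00817) and Nlrc5 at 0.43 (0.0305). Tap1 then had 0.32 (edgeR adjusted p = 0.296), Tapbpl 0.21 (0.129) and Irf1 0.13 (0.592). The other-cell score covered the tested markers of macrophages, of endothelial, stellate and B cells and of T and NK cells. Only 1 B cell marker and 1 T and NK cell marker were tested, so the score held little of those cells. With this score none of the 7 passed, where 12.5% of all genes did. Values there were 0.18 for Tap1, 0.27 for Tap2, 0.28 for Tapbp, 0.15 for Tapbpl, 0.34 for Nlrc5 and -0.02 for Irf1. Adjusted p from edgeR in that fit ran from 0.0672 for Tapbp to 0.961 for Irf1. The endothelial score alone left 1 of the 7, Tapbp, at 0.33 (edgeR adjusted p = 0.0435), where 11.2% of all genes passed. The stellate score alone left none, where 8.75% of all genes passed. Values with it were -0.049 for Tap1, 0.062 for Tap2, 0.089 for Tapbp, -0.013 for Tapbpl, -0.032 for Erap1, 0.14 for Nlrc5 and -0.38 for Irf1, with edgeR adjusted p from 0.332 to 0.970. Every old mouse was above every young mouse in the stellate sum. The source of these transcripts within the samples was not tested.

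The mice with the lowest and the highest macrophage sums after 1187 had the following values. Old mouse 1183 had the lowest macrophage sum of all 19 libraries, 96.8 CPM, while its stellate sum of 141 CPM was above every young mouse. Its Nlrc5 value of 10.7 CPM exceeded all 10 young mice, and its Tapbp value of 89.4 CPM and its Tap1 value of 22.3 CPM each exceeded 9 of 10. Its Tap2, Irf1, Tapbpl and Erap1 values exceeded 7, 6, 3 and 0 young mice. Old mouse 1242 had the second highest macrophage sum, 949 CPM. Its Tap2 value exceeded all 10 young mice, and its Nlrc5, Tapbp, Irf1, Tap1, Tapbpl and Erap1 values exceeded 9, 8, 7, 5, 3 and 3 of them. Young mouse 1184, with the third highest sum of 731 CPM, had the highest Tap2 value of the young mice. Its Tapbpl and Erap1 values each exceeded 8 of the other 9 young mice, its Irf1 value 7, its Tapbp and Nlrc5 values 6 each and its Tap1 value 5.

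**Figure D3:**
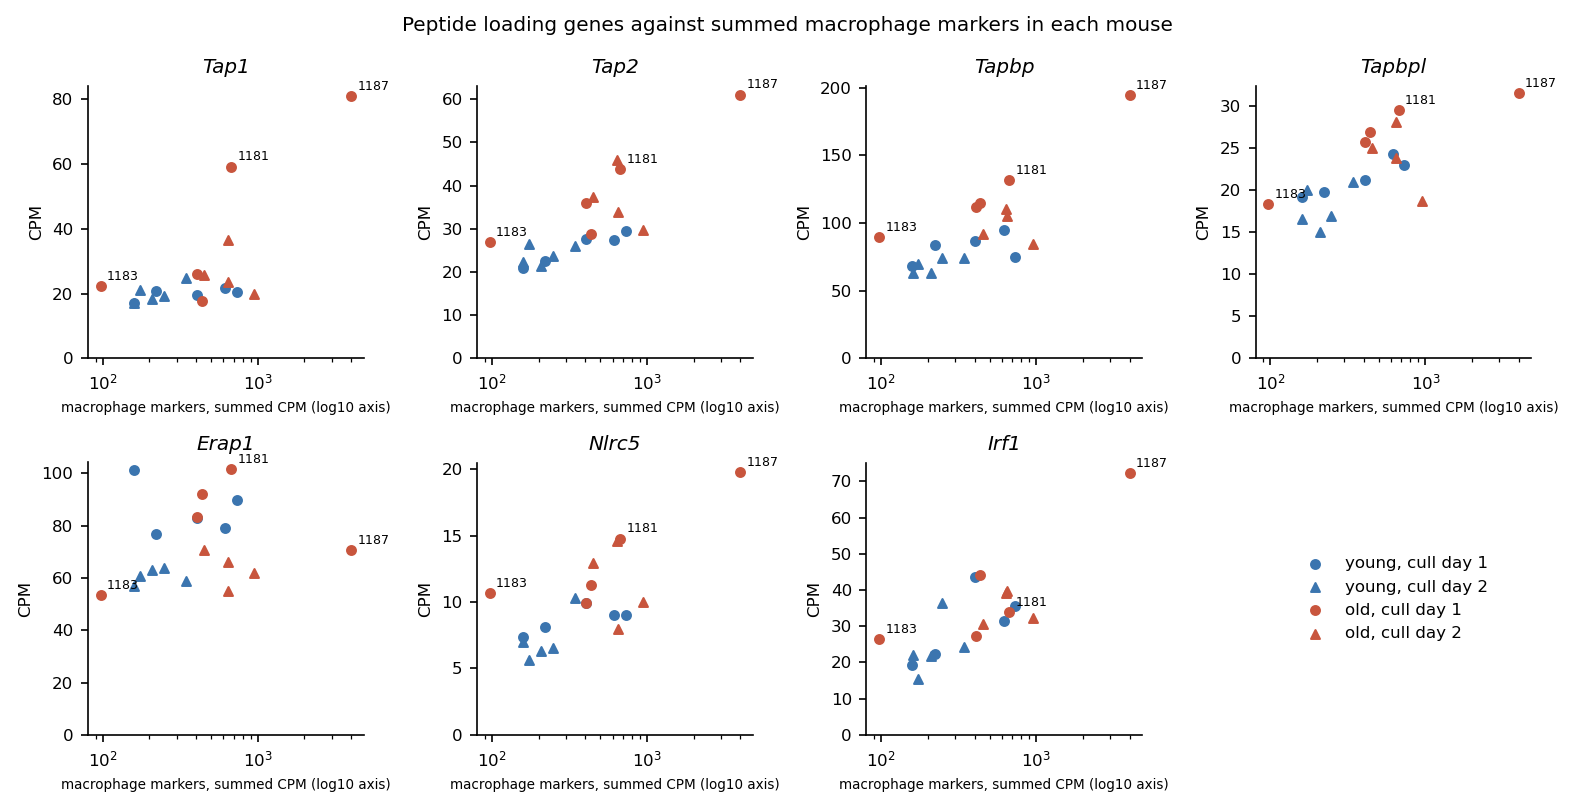
CPM of each gene (linear axis) against the summed CPM of 14 macrophage markers (log10 axis), 1 point per mouse, with old mice 1181, 1183 and 1187 labelled. Mouse 1187 is at the top right in every panel but Erap1, and mouse 1183, with the lowest macrophage sum, has Nlrc5 and Tapbp values above most young mice.

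The rest of the class I pathway was followed in 7 lists holding 46 genes of the table, of which 44 were tested. Of these, 18 were higher and 5 lower in old mice, against 16.3% higher and 14.5% lower over all genes. On the first day alone 3 passed, where 3.67% of all genes did, and on the second 13, where 19.3% did. With the macrophage score 10 of the 44 passed, where 18.1% of all genes did, and with the other-cell score 7 of the 44, where 12.5% did, so both shares were near those of all genes. Among the immunoproteasome genes, which encode the interferon-inducible catalytic subunits and activator, 4 of 5 rose, with a median log2 fold change of 0.45, where 16.3% of all genes rose. None of the 5 passed on the first day alone or with the macrophage, other-cell, endothelial or stellate score. Without young mice 1184, 1186 and 1188, 2 passed, where 27.2% of all genes did. Psmb8 rose by 0.72 (edgeR adjusted p = 0.00795), Psmb9 by 0.70 (0.0277), Psmb10 by 0.45 (0.00786) and Psme1 by 0.27 (0.0165). Psme2, which encodes the other activator subunit, had 0.12 (edgeR adjusted p = 0.217). Psmb9, which shares its promoter with Tap1, ran from 6.42 to 11.3 CPM in young mice and from 7.14 to 32.9 CPM in old mice. Psmb9 lost its call without old mouse 1187, where its log2 fold change was 0.44, and without old mouse 1240, with edgeR adjusted p of at most 0.0610 in these fits. It also lost it without young mice 1184, 1186 and 1188 (edgeR adjusted p = 0.0690). With the macrophage score Psmb8 had 0.33, Psmb9 0.23, Psmb10 0.25 and Psme1 0.19, with edgeR adjusted p from 0.0684 for Psmb8 to 0.420 for Psmb9.

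The constitutive subunits that these replace moved the other way or did not pass. Psmb7 fell by 0.21 on the log2 scale (edgeR adjusted p = 0.0139), a call lost on each day alone, with each marker score and without mice 1181 and 1187, while Psmb5 had -0.17 (0.0913) and Psmb6 -0.12 (0.249). The ratio within each mouse puts each immunosubunit over the subunit it replaces. Psmb10 over Psmb7 had a mean log2 ratio of -3.06 ± 0.265 over the 10 young mice and -2.41 ± 0.408 over the 9 old mice (both SD), with 8 of 9 old mice above every young mouse. That difference of 0.63 had an exact two-sided permutation p of 3.15e-05, the smallest the relabellings can give (adjusted 0.000157). Psmb8 over Psmb5 was higher by 0.84 (exact permutation p = 0.000661, adjusted 0.00165), with 4 of 9 old mice above every young mouse, and did not pass on the first day alone (0.74, exact permutation, adjusted p = 0.146). Psmb9 over Psmb6 was higher by 0.68 (exact permutation p = 0.0117, adjusted 0.0160), with 3 of 9. It did not pass on the first day alone (0.66, exact permutation, adjusted p = 0.327) or without young mice 1184, 1186 and 1188 (0.76, exact permutation, adjusted p = 0.0825). In both ages the mean of each of these ratios was below 0, so per kilobase the constitutive subunit remained the more abundant transcript.

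**Figure D4:**
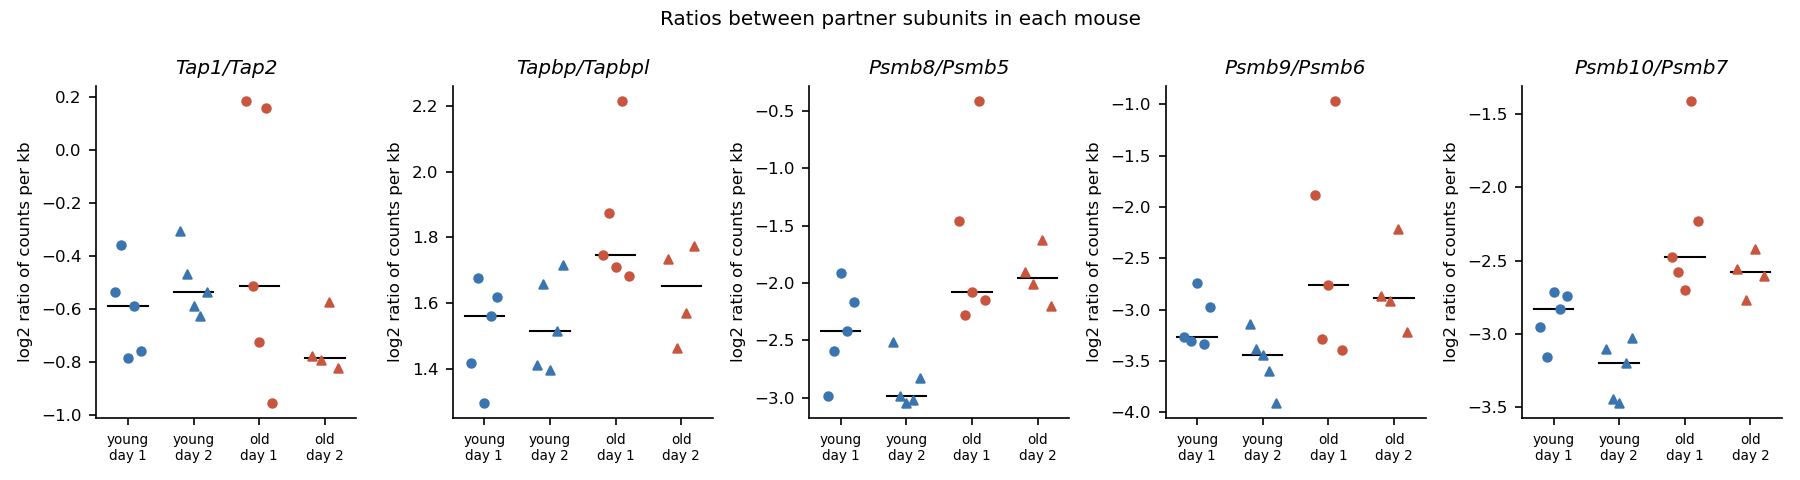
Log2 ratio of 5 pairs of partner genes per kilobase in each mouse, young in blue and old in red, circles for the first cull day and triangles for the second, with the median as a bar. The Tap1 to Tap2 ratios spread more widely in old mice, and 8 of 9 old Psmb10 to Psmb7 ratios lie above every young one.

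Cytosolic peptidases destroy or trim peptides before transport, and 5 of the 6 listed could be matched. Of the 5, 3 fell and none rose, with a median log2 fold change of -0.27, where 14.5% of all genes fell. The number that passed was 1 on the first day alone, where 3.67% of all genes did, and 0 on the second, where 19.3% did. With the stellate score it was 1, where 8.75% of all genes passed. Lap3, which encodes leucine aminopeptidase, had 383.1 to 433.8 CPM in young mice and 260.7 to 382.6 CPM in old mice. Every old mouse was below every young mouse, but the ranges nearly touched. The share of all genes with that pattern was not counted. The log2 fold change of Lap3 was -0.29 (edgeR adjusted p = 0.00216). Its call was lost on the first day alone (edgeR adjusted p = 0.0675), on the second (0.0890) and with the stellate score (0.215). Thop1, which encodes thimet oligopeptidase, fell by 0.36 (edgeR adjusted p = 0.0104) but did not pass without young mice 1184, 1186 and 1188 (-0.23, edgeR adjusted p = 0.106). Nor did Thop1 pass on the first day alone (edgeR adjusted p = 0.140) or on the second (0.128). Tpp2, which encodes tripeptidyl peptidase, fell by 0.27 (edgeR adjusted p = 0.00979). Its call was lost on the second day alone (-0.12, edgeR adjusted p = 0.422) and with the stellate score (-0.32, 0.112). Npepps had -0.15 (edgeR adjusted p = 0.166) and Blmh -0.10 (0.175).

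Of 10 tested class I heavy chain genes, which encode the peptide-binding chain, 9 rose and none fell, with a median log2 fold change of 0.59, where 16.3% of all genes rose. Of the 10, 2 passed on the first day alone, where 3.67% of all genes did, and 4 with the macrophage score, where 18.1% did. With the other-cell and the endothelial score it was 2 each, where 12.5% and 11.2% of all genes passed. With the stellate score it was 0, where 8.75% of all genes passed. H2-Q4 rose by 1.00 (edgeR adjusted p = 0.000301), H2-Q6 by 0.91 (0.00140) and H2-T23 by 0.64 (0.000311). On the first day alone H2-Q4 (edgeR adjusted p = 0.0778) and H2-Q6 (0.104) did not pass. H2-Q6 also did not pass with the other-cell score (0.59, edgeR adjusted p = 0.0634) or the endothelial score (0.58, 0.0525). With the stellate score H2-Q4 had 0.30 (edgeR adjusted p = 0.363), H2-Q6 0.53 (0.258) and H2-T23 0.44 (0.124). These near-identical genes can trade reads, so single values are uncertain. The chaperone list held B2m, the class I light chain, with Calr, Canx, Pdia3 and Uggt1, the folding helpers. None of the 5 passed in edgeR, where 30.9% of all genes did, and none had an unadjusted p below 0.05, where 5193 of 12269 did. B2m ranged from 918 to 1970 CPM in young mice and from 1119 to 1781 CPM in old mice, with a log2 fold change of 0.16 (edgeR adjusted p = 0.376).

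Of the 8 factors through which NLRC5 acts on class I promoters, 3 rose and 1 fell, with a median of 0.14, where 30.9% of all genes passed in either direction. Nfyb rose by 0.24 (edgeR adjusted p = 0.0125) and Rfxank by 0.29 (0.0215), while Creb1 fell by 0.28 (0.0353). Creb1 lost its call with library totals (-0.23, edgeR adjusted p = 0.122), with the totals in the column names (-0.26, 0.0869) and without the cull day term (-0.27, 0.0925). It also lost it on each day alone and with each marker score. The same held in 9 of 19 fits that left out 1 mouse (1180, 1181, 1184, 1185, 1188, 1236, 1237, 1238 or 1242). Over those 19 fits the number called in this list ranged from 2 to 4. It was 2 without 1181, 1184, 1185, 1188, 1236 or 1238, and 1 without 1184, 1186 and 1188 together, where 27.2% of all genes passed. On the first and the second day alone it was 0, where 3.67% and 19.3% of all genes passed. It was 2 with the macrophage score (18.1% of all genes), 1 with the other-cell (12.5%) or the endothelial score (11.2%) and 0 with the stellate score (8.75%). With the totals in the column names it was also 2, where 3375 of 12269 genes passed. Of 8 tested genes of interferon gamma signalling, 2 rose and none fell, with a median of 0.27, where 16.3% of all genes were higher. None passed on the first day alone or with the endothelial score, where 3.67% and 11.2% of all genes did. With the macrophage or the other-cell score 1 passed, where 18.1% and 12.5% of all genes did. Without old mouse 1183 it was 4, where 3825 of 12310 genes passed. Without 1184, 1186, 1188 and 1187 it was also 4, where 28.3% of all genes passed. The receptor gene Ifngr1 had 9.82 to 15.7 CPM in young mice and 14.5 to 41.0 CPM in old mice, and it rose by 0.67 (edgeR adjusted p = 0.00399) with 8 of 9 old mice above every young mouse. Irf9, a partner of STAT factors, rose by 0.34 (edgeR adjusted p = 0.00997). Ifngr1 did not pass on the first day alone (0.72, edgeR adjusted p = 0.113), with the other-cell score (0.19, 0.240) or with the endothelial score (0.26, 0.145). Irf9 did not pass on the first day alone (0.28, edgeR adjusted p = 0.246), with the macrophage score (0.18, 0.114), with the other-cell score (0.12, 0.393) or with the endothelial score (0.16, 0.255). With the stellate score neither passed and both signs turned, Ifngr1 to -0.080 (edgeR adjusted p = 0.800) and Irf9 to -0.0041 (0.991). Irf8, a factor of myeloid cells, had 1.04 (edgeR adjusted p = 0.0532), and passed when 1181, 1183, 1185, 1186, 1189 or 1235 was left out. Mouse 1187 had 29.7 CPM of Irf8 while the other 8 old mice had 1.82 to 7.22 CPM. Without 1187 the log2 fold change was 0.45 (edgeR adjusted p = 0.240). DESeq2 called Irf8, at 1.03 (adjusted p = 0.0256). In edgeR, Irf8 passed on the second day alone (0.93, adjusted p = 0.0160). It also passed there without 1184, 1186, 1188 and 1187 (0.90, edgeR adjusted p = 0.01125). With the macrophage score the value was -0.13, and with the stellate score it passed in the other direction, at -1.33 (edgeR adjusted p = 0.0205).

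**Figure D5:**
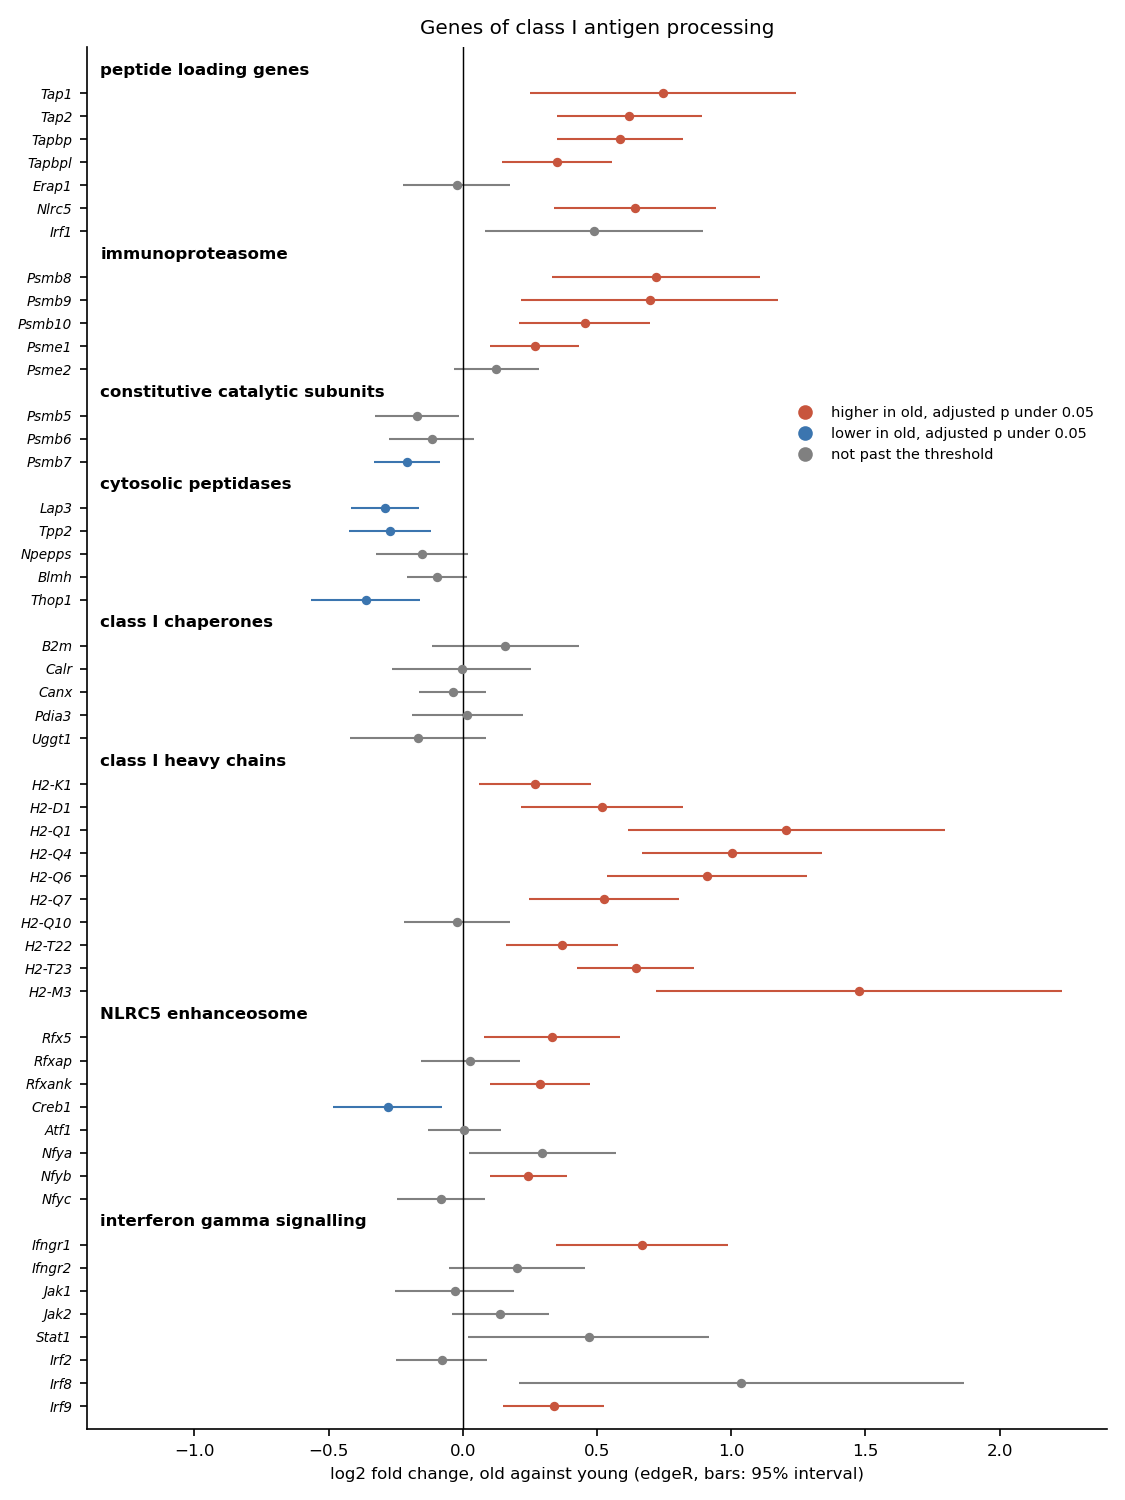
Log2 fold change of old against young mice with its 95% interval for the 7 peptide loading genes and 44 other tested genes of the class I pathway, grouped by list; red is higher in old, blue lower, grey did not pass. Heavy chains and immunoproteasome genes lie mostly to the right of 0, cytosolic peptidases to the left, and Erap1 and the chaperones on it.

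Finally, for each of the 6 genes other than Erap1 the 3 tested genes with the most alike log2 CPM over the 19 libraries were found by Pearson's r. These values describe libraries that share age, cull day and the other-cell markers above. Tap1 was most like Psmb9 (r = 0.910), H2-K1 (0.908) and H2-T22 (0.907), but by rank the values were lower, with Spearman's rho of 0.635, 0.781 and 0.628. For Tap2 they were H2-Q4 (0.945), Trim30a (0.940) and Samd9l (0.932). Both transporter genes thus had class I heavy chains among their 3. For Tapbp they were Ppt1 (0.956), Lgals3bp (0.940) and Ifi44 (0.930), and for Tapbpl Cyp20a1 (0.886), Tm7sf3 (0.882) and Tmem47 (0.878). Nlrc5 had Trim30d (0.886), Ctsc (0.883) and Xaf1 (0.879). Irf1 had Gm17757 and Gm18853 (both 0.895), which overlap and had equal counts in 19 of 19 libraries, and Zbp1 (0.891).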

How the data were processed

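Hepatocyte poly(A) RNA from 19 mice was sequenced as stranded paired-end libraries, per the labels' protocols. The deposited table holds estimated counts per gene. Per the file headers it was written by HOMER, which counted reads in exons of RefSeq transcripts on mm10 and left the counts raw, and STAR is named in the submitters' processing notes. Versions, the strand setting and the handling of multiply matching reads are not given in the sources used here. Of the counts, 29.2% were not whole but multiples of 0.5. They were therefore rounded for count tests, a change from the plain counts for which the tests were written. Genes held 78.3% to 86.5% of the totals in the column names.

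Age was tested with edgeR 4.0.16 (R 4.3.3): trimmed mean of M-values scaling, filterByExpr with a minimum count of 10, a term for cull day, and Benjamini-Hochberg adjustment over 12269 genes. CPM are unrounded counts over the scaled library size. Scripts were tested on simulated data. Ratios used counts per kilobase with 0.5 added to each count, and 31752 relabellings within cull days. Marker scores were mean log2 CPM of the tested markers, with a prior count of 2. Labels give 1 library per numbered animal, so p-values measure the spread between these libraries.

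The 7 genes and all lists were chosen with earlier results of these data known. Named genes were the 7, genes of lists of up to 6, the 3 smallest p of longer lists, and the 3 most alike genes, which are not reported here for Erap1. Alternatives were DESeq2 1.42.0, limma 3.58.1 voom, other scaling and filters, each cull day alone, marker covariates and leaving out mice. The test of cull day, the endothelial and stellate covariates, and the fits without 1181 and 1187 or without 1184, 1186, 1188 and 1187 were chosen after seeing the data. Python 3.11.15 computed the rest.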

Additional observations from a re-analysis of the deposited data

Results flagged for a closer look

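Old mouse 1187 stood apart from the other old mice in 4 of 12 sets of old values examined (7 genes and 5 ratios), where its gap to the next mouse, as a share of the group's range, exceeded 0.493; none of the 12 sets of young values held such a mouse, and chance flags about 1 in 20 groups. Its Tapbp level was 194.8 CPM, with the next old mouse at 131.6 CPM. Its Irf1 level was 72.4 CPM, with the next at 44.1 CPM. Its log2 ratio of Psmb8 to Psmb5 was -0.42, with the next at -1.46, and that of Psmb10 to Psmb7 was -1.41, with the next at -2.23. The same mouse had the highest macrophage, T and NK cell and B cell marker sums, and their part in these values was not tested.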

How the results depend on the processing

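No paired analysis was possible because the library numbers are not shared between ages. The number of the 7 genes called, 5 in the report, was 0 on the first cull day alone, with the other-cell score and with the stellate score, 1 with the endothelial score and 3 with the macrophage score; leaving out 1 mouse gave 5 to 6. Genes called overall were 450 on the first and 2388 on the second day, and 1534, 2216, 1371 and 1074 with the other-cell, macrophage, endothelial and stellate scores. Without mice 1181 and 1187 they were 2510, and leaving out 1 mouse gave 3014 to 3949. Of the pathway genes, 3 and 13 were called on the first and second day, and 7, 10, 6 and 3 with those scores, against 20 to 24 leaving out 1 mouse. With the stellate score, log2 fold changes turned for Tap1 (-0.049), Tapbpl (-0.013), Irf1 (-0.38), Psmb8 (-0.15), Psmb9 (-0.10), Psme2 (-0.072), Psmb6 (0.094), Ifngr1 (-0.080), Irf9 (-0.0041) and Irf8 (-1.33). Irf8 also turned with the other-cell (-0.51), macrophage (-0.13) and endothelial (-0.30) scores, and Irf1 with the other-cell score (-0.016). Erap1 turned with library totals (0.011), limma-voom (0.022) and the second day (0.067), and lay between -0.068 and 0.039 leaving out 1 mouse; B2m turned on the second day (-0.020).

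The Tap1 to Tap2 ratio difference was 0.019 relabelling over all mice, 0.23 on the first day, -0.24 on the second and -0.071 to 0.071 leaving out 1 mouse. Tapbp to Tapbpl lost its call on the second day (0.10) and without 1184, 1186 and 1188 (0.20), Psmb8 to Psmb5 on the first day (0.74), and Psmb9 to Psmb6 on the first day (0.66) and without those 3 mice (0.76). The causes were not tested. At these depths the 7 genes had at least 103 counts per library; counting error and spread between mice were not separated.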
